A study of Rattus norvegicus with 8 samples.

Results

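The adrenomedullin peptides and their receptor subunits were examined in the rat thyroid by RNA-Seq. The list held 6 genes, the peptide genes Adm2 and Adm, the receptor gene Calcrl, and the genes of the receptor activity-modifying proteins, Ramp1, Ramp2, and Ramp3. Genes were looked up by symbol, and where a gene had several transcripts the one with the highest summed count was used. In this way, 4 of the 6 genes were found among 30560 gene identifiers (Adm2, Adm, Calcrl, and Ramp3). Ramp1 and Ramp2 were not analysed here.

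Thyroids came from male Wistar rats whose neck alone was left unshielded by lead plates. The 1w0Gy rats were sham-irradiated and the 1w4Gy rats received 4 Gy of X-rays at 1 week of age, and the 4m0Gy and 4m4Gy rats were handled alike at 4 months of age. Thyroids were taken about 8 weeks later, so the 1-week rats were young adults at sampling and the 4-month rats were older. Each group had 2 rats, chosen within the group for high RNA integrity, and whether rats shared a litter is not given in the sources used here. Reads counted on genes numbered 14835400 to 18138102 in a sample, and thyroglobulin took 18.5% to 21.3% of them. Parathyroid marker mRNA, from the gland beside the thyroid, summed to 343 CPM (counts scaled to library size) in 4m4Gy sample 2 and to as much as 5482 CPM elsewhere.

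Adrenomedullin, encoded by Adm, and adrenomedullin 2, also named intermedin and encoded by Adm2, are secreted peptides of the calcitonin family. They act through the calcitonin receptor-like receptor, the product of Calcrl, which reaches the cell surface and gains its ligand preference only in a complex with a RAMP protein. With RAMP2 or RAMP3 this complex is an adrenomedullin receptor, and with RAMP1 it is the receptor of calcitonin gene-related peptide. The family is best known in blood vessels, where it raises cyclic AMP, relaxes the vessel wall, and maintains the endothelial barrier. Adm transcription is known to respond to hypoxia and Adm2 transcription to the stress factor ATF4.

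The sequences upstream of Adm2, Ramp3, and Adm are shown because the first 2 were higher in the irradiated samples at each age and Adm was not. They are the 250 bases before the start of each gene in RefSeq on build GRCr8, on the plus strand, at chr7:122272558-122272807 for Adm2, chr14:85741064-85741313 for Ramp3, and chr1:174179950-174180199 for Adm. Capitals mark matches to the motifs described after the sequences.
Adm2: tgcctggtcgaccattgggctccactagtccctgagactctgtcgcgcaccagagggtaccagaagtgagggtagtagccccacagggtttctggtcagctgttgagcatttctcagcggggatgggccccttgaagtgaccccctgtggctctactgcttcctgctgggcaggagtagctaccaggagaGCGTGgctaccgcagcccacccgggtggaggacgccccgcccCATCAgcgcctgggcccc
Ramp3: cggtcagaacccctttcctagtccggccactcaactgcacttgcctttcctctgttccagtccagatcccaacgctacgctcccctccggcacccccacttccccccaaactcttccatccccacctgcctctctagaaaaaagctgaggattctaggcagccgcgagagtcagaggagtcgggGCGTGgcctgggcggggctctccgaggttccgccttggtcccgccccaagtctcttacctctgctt
Adm: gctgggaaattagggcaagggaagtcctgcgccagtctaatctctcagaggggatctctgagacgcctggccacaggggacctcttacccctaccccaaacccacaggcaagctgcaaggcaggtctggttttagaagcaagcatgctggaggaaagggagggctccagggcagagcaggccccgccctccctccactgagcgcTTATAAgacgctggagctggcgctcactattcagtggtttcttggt
Each motif was searched on both strands, with positions counted back from the start. The hypoxia-element core GCGTG was found at -60 in Adm2 and at -66 in Ramp3, and 25.9% of all 33469 upstream sequences of this length hold it. The other form of that core, ACGTG, which 16.6% hold, was in none of the 4 windows. The letters TGATG, with which the ATF4 element begins, were found on the reverse strand at -18 in Adm2 and are in 35.2% of all windows, but the longer TGATGNAA, in 3.40% of all, was in none of the 4. TATAA was found in Adm at -45 and, overlapping on the reverse strand, at -46, against 24% of all windows. TGACG, a part of the cyclic AMP element, and the p53 binding motif (10 bases, a single copy) were in none of the 4, and 18.2% and 6.64% of all windows hold them. The Calcrl window held none of the motifs searched. A match describes the letters and does not show that a factor binds.

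Adm2 (ENSRNOG00000029830) was the most variable of the 4 genes. Its expression, given as CPM (read counts scaled to a common library size after TMM normalization), was 6.10 and 5.44 for 1w0Gy, 14.9 and 11.6 for 1w4Gy, 14.1 and 10.4 for 4m0Gy, and 19.4 and 21.9 for 4m4Gy. Both 1w0Gy samples were below all others and both 4m4Gy samples above all others, whereas 1w4Gy and 4m0Gy overlapped. The group means followed the order 1w0Gy (5.77 ± 0.463), 4m0Gy (12.3 ± 2.66), 1w4Gy (13.3 ± 2.34), and 4m4Gy (20.7 ± 1.82; SD, n = 2 each). The middle neighbours in this order did not differ beyond their spread.

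Adm (ENSRNOG00000027030), the gene of the founding peptide, had the lowest counts, 34 to 93 reads per sample. It was at 4.10 and 5.38 CPM for 1w0Gy, 3.11 and 2.53 for 1w4Gy, 2.2 and 5.34 for 4m0Gy, and 4.05 and 4.73 for 4m4Gy. The 1w4Gy samples were below both 1w0Gy samples. The 4m0Gy samples held the lowest value of all 8 and nearly the highest, so the 4-month groups overlapped. The means were 2.82 ± 0.407 in 1w4Gy, 3.77 ± 2.22 in 4m0Gy, 4.39 ± 0.479 in 4m4Gy, and 4.74 ± 0.907 in 1w0Gy (SD, n = 2 each), and no neighbours in this order were separated beyond their spread.

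Calcrl (ENSRNOG00000054695), a receptor through which both peptides act, was at 32.2 and 27.5 CPM for 1w0Gy, 36.0 and 35.7 for 1w4Gy, 27.3 and 28.9 for 4m0Gy, and 22.8 and 25.5 for 4m4Gy. The 1w4Gy samples were the highest and the 4m4Gy samples the lowest of the 8, while the sham-irradiated groups of the 2 ages overlapped. The means ran from 24.2 ± 1.89 CPM in 4m4Gy through 28.1 ± 1.08 in 4m0Gy and 29.8 ± 3.30 in 1w0Gy to 35.8 ± 0.242 in 1w4Gy (SD, n = 2 each), and of these neighbours only 4m0Gy and 1w0Gy did not differ beyond their spread.

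Ramp3 (ENSRNOG00000053766), which encodes a RAMP partner of CALCRL, was at 23 and 23.1 CPM for 1w0Gy, 33.6 and 24.8 for 1w4Gy, 22.4 and 22.1 for 4m0Gy, and 31.9 and 31.1 for 4m4Gy. No irradiated sample was as low as any of the sham-irradiated samples. The 1w4Gy samples lay far apart, and 1 of them was only slightly above 1w0Gy. The means were 22.2 ± 0.259 CPM in 4m0Gy, 23 ± 0.0799 in 1w0Gy, 29.2 ± 6.17 in 1w4Gy, and 31.5 ± 0.506 in 4m4Gy (SD, n = 2 each), with overlap between the 2 irradiated groups.

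**Figure D1:**
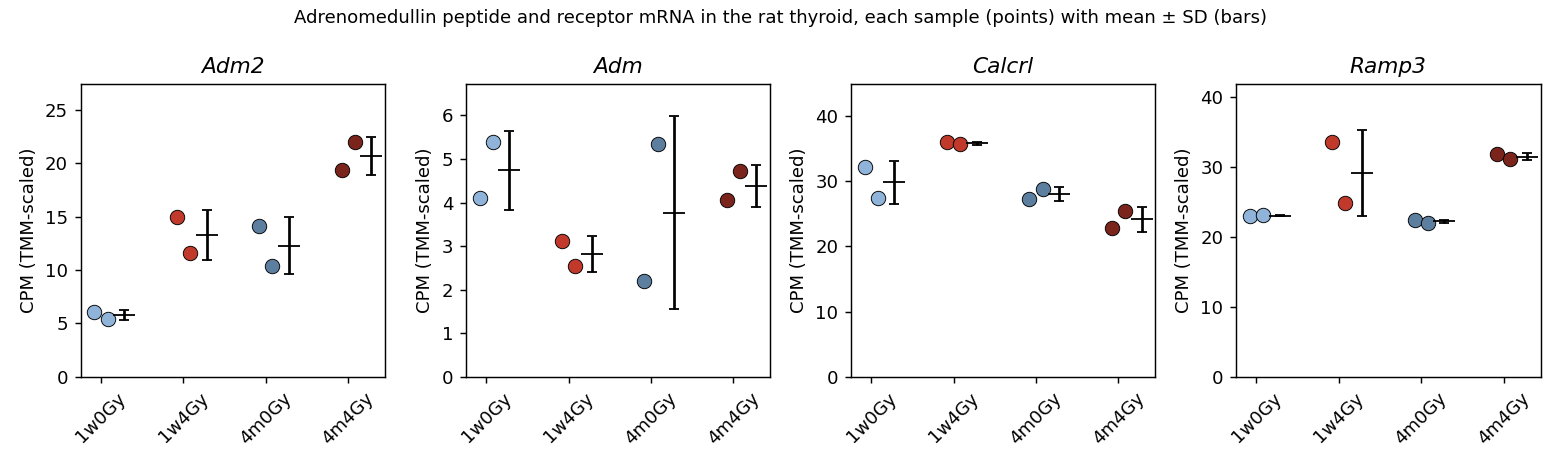
Expression of Adm2, Adm, Calcrl, and Ramp3 in CPM (vertical axis, from 0) in the 4 groups. Points are the 2 samples of a group and bars the mean ± SD. Adm2 was lowest in 1w0Gy and highest in 4m4Gy, and in Ramp3 each irradiated sample was above 23.1 CPM, the highest sham value.

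For levels between genes, CPM was divided by the length of the counted transcript. Ramp3 had the highest CPM per kilobase in each group, with means of 18.8 to 26.7, followed by Calcrl at 8.90 to 11.3 in all groups but 4m4Gy. In 4m4Gy the mean of Adm2 (8.50 CPM per kilobase) was above that of Calcrl (7.66). Adm2 ranged from 2.37 to 8.50 and Adm from 2.01 to 3.38 CPM per kilobase.

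The question of the neonatal comparison was whether irradiation at 1 week of age left lasting changes in mRNA expression. Adm2 was 2.30-fold higher in 1w4Gy than in 1w0Gy, Ramp3 1.27-fold, and Calcrl 1.20-fold, while Adm was at 0.596 of its sham level. The groups did not overlap in any of the 4 genes, but 17.7% of the 15359 genes tested had both irradiated samples above both sham samples and 17.8% had both below. By the quasi-likelihood test of edgeR, with p-values adjusted after Benjamini-Hochberg, 0 of the 4 genes passed an adjusted p of 0.05, as did 0.0% of all genes. At an unadjusted p under 0.05 there were 882 genes (5.74%), Adm2, Adm, and Calcrl among them. The DESeq2 Wald test called 21 genes, of which Adm2 was 1.

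The neonatal log2 fold change of Adm2 was 1.20 ± 0.19 (SE), with an adjusted p of 0.608 by edgeR. DESeq2 gave it an adjusted p of 0.0141, and over all alternatives to the test the adjusted p ranged from 0.0141 to 0.862. Leaving out 1w4Gy sample 2 gave a log2 fold change of 1.37 with an adjusted p of 0.0174 by edgeR, the one left-out sample that brought a call. The study first picked Adm2 from this contrast of these samples, so its value here describes that choice and is not independent evidence. The study then kept Adm2 after quantitative RT-PCR in the larger set of rats from which the sequenced rats had been chosen. It also reported that Adm2 mRNA changed with dose in separate neonatally irradiated rats. For Adm the log2 fold change was -0.75 ± 0.25, for Calcrl 0.26 ± 0.11, and for Ramp3 0.34 ± 0.15 (SE), each with an adjusted p of 0.864 by edgeR. Without 1w4Gy sample 1, the value of Ramp3 was 0.11, and without 1w4Gy sample 2 it was 0.54. That of Calcrl was 0.16 without 1w0Gy sample 2.

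In rats irradiated at 4 months, Adm2 and Ramp3 were again higher in both irradiated samples and Calcrl was lower in both. Adm2 was 1.68-fold and Ramp3 1.41-fold higher in 4m4Gy than in 4m0Gy, and Calcrl was at 0.858 of its sham level. Of the 15253 genes tested, 20.9% had both irradiated samples above both sham samples and 18.7% had both below. By edgeR, 0 of the 4 genes and 0.0% of all genes passed an adjusted p of 0.05, with 1227 genes (8.04%) at an unadjusted p under 0.05, Adm2 and Ramp3 among them. DESeq2 called 9 genes, none of the 4, and gave these 4 no adjusted p in this comparison.

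The adult log2 fold change of Adm2 was 0.75 ± 0.17 (SE, adjusted p = 0.507 by edgeR). It passed the threshold only without 4m0Gy sample 1 (log2 fold change 0.99, adjusted p = 0.0419), and the adjusted p ranged from 0.0419 to 0.696 over the fits that left out 1 sample. Ramp3 had a log2 fold change of 0.50 ± 0.09 (SE, adjusted p = 0.471 by edgeR) that stayed between 0.48 and 0.51 when each sample was left out. Calcrl was at -0.22 ± 0.10 (SE, adjusted p = 0.643 by edgeR), and at -0.14 without 4m4Gy sample 1. Adm, at 0.21 ± 0.40 (SE, adjusted p = 0.913 by edgeR), depended on the 4m0Gy samples, with -0.29 without sample 1 and 0.99 without sample 2.

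Side by side, the ages shared a direction in the case of Adm2 and Ramp3. Of 15040 genes measured at both ages, 2.93% had irradiated samples above sham samples within each age, as Adm2 and Ramp3 did. Calcrl was above at 1 week and below at 4 months, which 4.96% of genes were. The interaction of age and irradiation was fitted on all 8 samples, and by edgeR 0 of the 4 genes and 0.0% of 15684 genes passed an adjusted p of 0.05, against 1430 genes (9.12%) at an unadjusted p under 0.05 and 21 called by DESeq2, none of the 4. The interaction, the log2 fold change at 4 months minus that at 1 week, was -0.44 ± 0.27 for Adm2 (SE, adjusted p = 0.655 by edgeR) and 0.16 ± 0.19 for Ramp3 (SE, adjusted p = 0.839 by edgeR). A difference in the response of Adm2 between the ages was therefore not detectable with 2 rats per group. The study, however, reported no change of Adm2 mRNA after adult irradiation by quantitative RT-PCR. That measurement used the larger set of rats from which the sequenced rats had been chosen. It described the rise of Adm2 as specific to neonatal irradiation. The higher adult values of Adm2 in the RNA-Seq samples were thus not seen in that larger set of rats. Of the 4 genes Calcrl alone had an unadjusted p under 0.05 for the interaction, at -0.48 ± 0.15 (SE, adjusted p = 0.446 by edgeR). The interaction of Adm was 0.96 ± 0.53 (SE, adjusted p = 0.629 by edgeR), with 0.46 without 4m0Gy sample 1 and 1.74 without 4m0Gy sample 2.

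**Figure D2:**
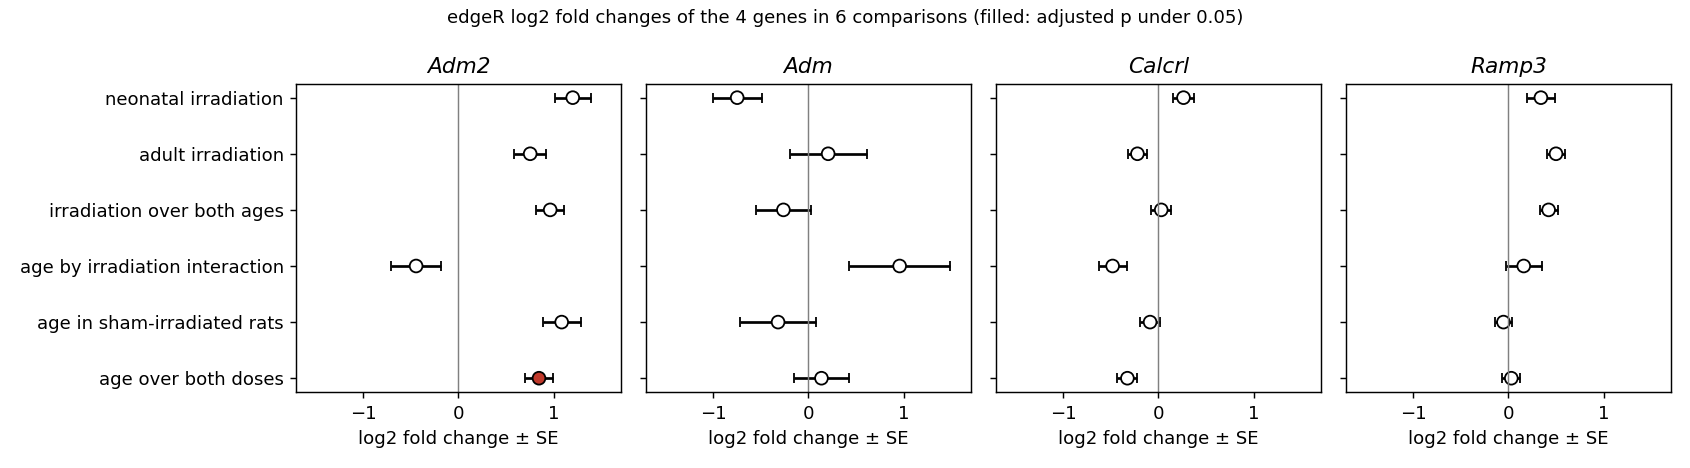
Log2 fold changes ± SE (horizontal axis) of the 4 genes from edgeR in the 6 comparisons (vertical axis). Filled points passed an adjusted p of 0.05, which Adm2 did with age over both doses. The irradiation values of Adm2 and Ramp3 were above 0 at each age and those of Calcrl were on either side of 0.

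With the irradiated and sham-irradiated samples of both ages in a single model, the log2 fold change of Adm2 was 0.96 ± 0.15 (SE) and that of Ramp3 0.42 ± 0.09. Calcrl was at 0.03 ± 0.10 and Adm at -0.26 ± 0.29. Left-out samples moved Adm to between -0.55, without 4m0Gy sample 1, and -0.09, without 1w0Gy sample 2, and the values without 1w4Gy sample 2, 4m0Gy sample 2, and 4m4Gy sample 2 were -0.11, -0.12, and -0.41. None of the 4 passed (Adm2 adjusted p = 0.319, Ramp3 adjusted p = 0.932, edgeR), among 15684 genes of which 0.00638% did and 633 (4.04%) had an unadjusted p under 0.05, Adm2 and Ramp3 among them. DESeq2 called 12 genes, Adm2 among them at an adjusted p of 2.2e-05. The adjusted p of Adm2 over the alternatives lay between 2.2e-05 and 0.829. Leaving out 4m0Gy sample 1 gave 1.11 with an adjusted p of 0.0496 by edgeR. The irradiated samples all lay above the sham samples in 0.988% of genes, Ramp3 being 1 of them, while Adm2 overlapped because 1w4Gy and 4m0Gy did.

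The age comparison asked how the levels stood without irradiation, and it shares its sham samples with the irradiation comparisons. Age, sampling occasion, and origin of the rats cannot be told apart in it. Between 1w0Gy and 4m0Gy, Adm2 had a log2 fold change of 1.08 ± 0.20 (SE, adjusted p = 0.0720 by edgeR), which missed the threshold that 0.722% of 15364 genes passed, although its unadjusted p of 0.0011 was under 0.05, as in 17.7% of genes. DESeq2 gave an adjusted p of 0.00839, the range over the alternatives was 0.00839 to 0.120, and without 4m0Gy sample 2 edgeR gave a log2 fold change of 1.29 at an adjusted p of 0.00411. Adm, Calcrl, and Ramp3 were at -0.32 ± 0.40, -0.09 ± 0.11, and -0.05 ± 0.09 (SE). Both samples of 4m0Gy were above both of 1w0Gy in Adm2 and below in Ramp3, against 25.4% and 24.8% of all genes, and in Ramp3 the difference was small.

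Over both doses, Adm2 rose with age, with a log2 fold change of 0.84 ± 0.15 (SE, adjusted p = 0.0143 by edgeR). It was 1 of 4 genes called, against 4.25% of 15684 genes in either direction and 1.82% that rose. Calcrl also had an unadjusted p under 0.05, as did 20.6% of genes. The call held in 8 of 8 alternatives to the test (adjusted p = 2.4e-05 to 0.0244) and in each of 8 fits that left out 1 sample (adjusted p = 0.0124 to 0.0491). The older rats were not above the younger in every sample, since 1w4Gy and 4m0Gy overlapped. Calcrl was at -0.33 ± 0.11 (SE, adjusted p = 0.113 by edgeR), with an adjusted p between 0.0493 and 0.134 over the alternatives. Adm (0.14 ± 0.29) and Ramp3 (0.03 ± 0.09) had age values within their SE.

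Markers of some cell types of the tissue also moved with age. Calcitonin-producing C cell markers summed to 3469 to 5944 CPM in the 1-week groups and 6419 to 8642 CPM in the 4-month groups, and Calca among them was called higher with age. Adm2 as a percent of that sum was 0.103 and 0.147 for 1w0Gy, 0.430 and 0.293 for 1w4Gy, 0.220 and 0.142 for 4m0Gy, and 0.224 and 0.292 for 4m4Gy. On this scale the sham-irradiated groups of the 2 ages overlapped. The irradiated samples were above the sham samples within each age, at 4 months by as little as 0.224 against 0.220. The sum did not follow Calca alone. In 4m4Gy sample 2, lowest in parathyroid markers, it was below sample 1 (7523 against 8642 CPM), though Calca was higher (6769 against 5884 CPM). The order at 4 months therefore holds for this sum only, and the part of parathyroid tissue in it was not tested. Fibroblast markers summed to 2231 to 3061 CPM at 1 week and 847 to 1148 CPM at 4 months. Of 6, 4 were called lower with age over both doses, against the same 4.25% of all genes. Thyroid follicular cell markers summed to 189335 to 224816 CPM over the samples. With age over both doses, 7 of 10 tested had a log2 fold change above 0, and Tshr alone was called, lower with age. The part of these cell types in the Adm2 result was not tested, and which of them hold Adm2 mRNA is not shown here. In bulk tissue fewer cells of a type and less RNA per cell cannot be told apart.

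Blood endothelium, where CALCRL and its partners are best known, was present in each sample, with 12 of 14 markers found and none at 0. Its markers summed to 1493 and 1453 CPM for 1w0Gy, 1758 and 1588 for 1w4Gy, 1271 and 1536 for 4m0Gy, and 1551 and 1585 for 4m4Gy. The irradiated samples were above their sham samples at each age, at 4 months by as little as 1551 against 1536 CPM. Of 12 markers, 11 had a log2 fold change above 0 at each age. The medians were 0.20 and 0.13, against 0.00 and 0.01 over all genes tested. By edgeR or DESeq2, 0 were called. At an unadjusted p under 0.05 there were 6 at 1 week and 2 at 4 months, against 5.74% and 8.04% of all genes. Ramp3 as a percent of this sum was 1.54 and 1.59 for 1w0Gy, 1.91 and 1.56 for 1w4Gy, 1.76 and 1.44 for 4m0Gy, and 2.05 and 1.96 for 4m4Gy. It thus overlapped between the 1-week groups but was higher in both 4m4Gy samples than in both 4m0Gy samples. Calcrl was 1.47% and 1.61% of the sum in 4m4Gy and 1.88% to 2.24% in all other samples. The part of endothelial content in these values was not tested.

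The balance within ligand and receptor pairs was taken as a ratio of CPM per kilobase. Adm2 to Adm was 0.858 and 0.584 for 1w0Gy, 2.77 and 2.65 for 1w4Gy, 3.72 and 1.12 for 4m0Gy, and 2.76 and 2.68 for 4m4Gy. Adm mRNA exceeded Adm2 mRNA on this scale in the 1w0Gy samples and in no other. Ramp3 to Calcrl was 1.91 and 2.25 for 1w0Gy, 2.49 and 1.86 for 1w4Gy, 2.19 and 2.04 for 4m0Gy, and 3.73 and 3.26 for 4m4Gy, so that both 4m4Gy samples stood above the other 6. These ratios carry no test.

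**Figure D3:**
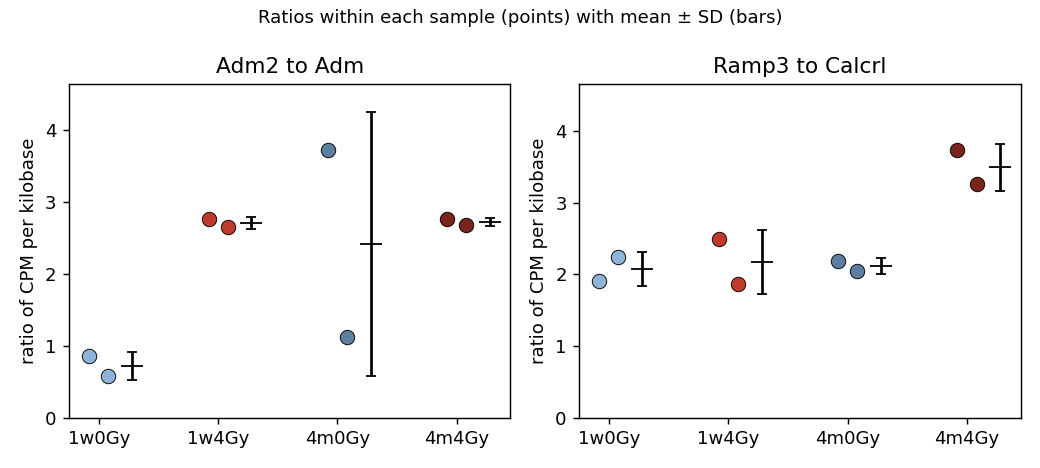
Ratio of Adm2 to Adm and of Ramp3 to Calcrl in CPM per kilobase (vertical axes, from 0) in the 4 groups. Points are samples and bars the mean ± SD (n = 2). The 1w0Gy samples were the only ones below 1 for Adm2 to Adm, and the 4m4Gy samples were highest for Ramp3 to Calcrl.

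The other genes of the calcitonin family and of its processing and coupling were taken from a list of 30, of which 29 were found. In the irradiation comparisons 0 were called by edgeR at either age. At an unadjusted p under 0.05 there were 1 of 26 tested at 1 week, against 5.74% of all genes. At 4 months there were 6 of 28, against 8.04%. DESeq2 called 0 at 1 week and 1 at 4 months, Cpe, a carboxypeptidase of peptide hormone processing. Over both doses 2 of 28 rose with age by edgeR, against 4.25% of all genes called, 0 fell, and 11 of 28 had an unadjusted p under 0.05, against 20.6% of all genes. DESeq2 called 5 there, among 1039 genes it called in all, namely Calca, Pcsk1, Pam, Cpe, and, lower with age, Ide. By edgeR the median log2 fold change was 0.09 against 0.00 over all genes. The 2 genes called by edgeR were Calca, the gene of calcitonin and of calcitonin gene-related peptide (log2 fold change 1.19 ± 0.20, adjusted p = 0.0132 by edgeR), and Pcsk1, a protease that cuts prohormones (0.81 ± 0.18, adjusted p = 0.0364 by edgeR). Calca was at 3181 and 1993 CPM for 1w0Gy, 1786 and 2594 for 1w4Gy, 4108 and 5265 for 4m0Gy, and 5884 and 6769 for 4m4Gy.

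Calcb, the second gene of calcitonin gene-related peptide, was at 16.8 and 12 CPM for 1w0Gy, 11.7 and 24.3 for 1w4Gy, 12.7 and 28.2 for 4m0Gy, and 34.2 and 37.0 for 4m4Gy. Pam, the enzyme that amidates these peptides at their end, ranged from 261 to 468 CPM, and its age value was 0.45 ± 0.14 (SE, adjusted p = 0.0988 by edgeR). The calcitonin receptor gene Calcr, a relative of Calcrl, had 0 to 4 reads per sample, too few for a comparison at this depth. Iapp, the amylin gene, had 2 to 16 reads per sample, and its age value over both doses was 1.5 ± 0.47 (SE, adjusted p = 0.105 by edgeR).

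Lists of genes that respond as Adm and Adm2 are known to do were read beside them. Of 12 hypoxia-responsive genes 10 were found, and 0 were called by edgeR or DESeq2 with irradiation at either age (0 at an unadjusted p under 0.05). Ndrg1 rose with age over both doses (log2 fold change 0.51 ± 0.07, adjusted p = 0.00509 by edgeR), and 3 of the 10 had a log2 fold change above 0. Of 15 genes that respond to ATF4, 13 were tested and 0 were called by edgeR in any of the 6 comparisons. At an unadjusted p under 0.05 there was 1 with irradiation at each age, against 5.74% of all genes at 1 week and 8.04% at 4 months. With age over both doses there were 5, against 20.6%. DESeq2 called 0 with irradiation at either age, Ddit4 with irradiation over both ages, and Shmt2 with age over both doses. Their median log2 fold change with irradiation was 0.08 at 1 week and 0.10 at 4 months, against 0.00 and 0.01 over all genes tested.

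The genes nearest to each of the 4 were found by the root mean square difference of their centred log2(CPM + 0.5) over the 8 samples, among 12977 genes. Nearest to Adm2 were Kcna5, a potassium channel (0.25), Cpa4, a carboxypeptidase (0.29), and Vnn1, a pantetheinase (0.31), where the deviation of Adm2 from its own mean was 0.65. The study first picked Cpa4 and Vnn1, like Adm2, from the neonatal contrast of these samples. Nearest to Ramp3, whose own deviation was 0.23, were Ccng1, the cyclin G1 gene (0.10), Smpd3, a sphingomyelinase (0.10), and Bcdin3d, an RNA methyltransferase (0.10). For Calcrl, with an own deviation of 0.21, they included Dpy19l1 (0.04) and Fndc3b (0.07). For Adm, with 0.40, they were Hsd11b2, the enzyme that inactivates glucocorticoids (0.16), Rpl12-ps1 (0.18), and Grin2d (0.19), each at a mean of 1.49 to 2.04 CPM. Likeness over 8 samples of 4 groups says nothing of shared function.

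**Figure D4:**
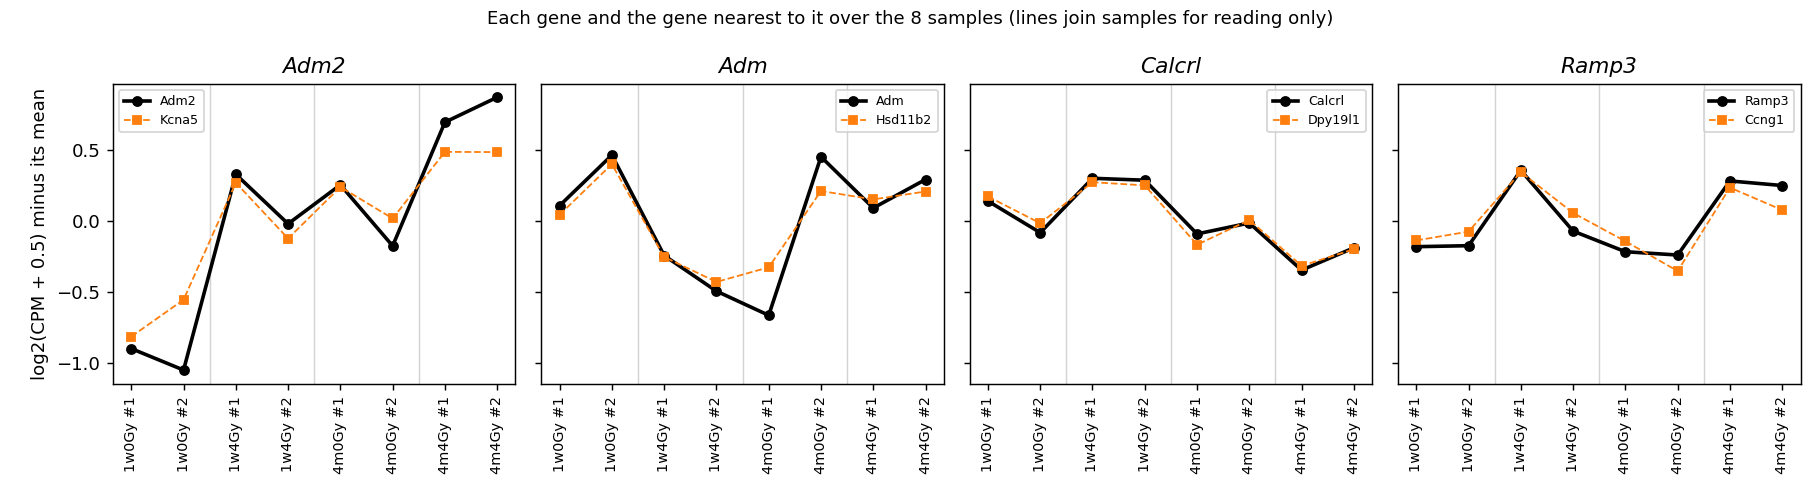
Centred log2(CPM + 0.5) (vertical axis) of each of the 4 genes (black) and the gene nearest to it (dashed, coloured) in each of the 8 samples (horizontal axis). Adm2 spanned a wider range than its nearest gene, Kcna5, and Calcrl and Dpy19l1 differed by a root mean square of 0.04.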

How the data were processed

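RNA-Seq was performed by the study on thyroid RNA of 8 male Wistar rats, 2 per group, with a directional library kit and paired reads. According to the submitters' processing notes, reads were mapped with HISAT2 2.2.1 and counted with featureCounts 2.0.0. The genome build is not given in the sources used here. The authors deposited raw counts per transcript, which are not normalized and were used for all tests, with the transcript length in bases. The authors also deposited TPM, used in one alternative as log2(TPM + 1), and RPKM, not used here. Of 54991 transcripts of 30560 genes, the one with the highest summed count was kept per gene, and 7162 genes carry no name.

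With edgeR 4.0.16 in R 4.3.3, counts were filtered with filterByExpr by group, scaled with TMM, and tested with glmQLFit and glmQLFTest in 6 comparisons, with Benjamini-Hochberg adjustment over all genes tested and calls at an adjusted p under 0.05. SE was derived from the F statistic. The comparisons within an age and in sham rats used their own 4 samples, and the others all 8. Alternatives were DESeq2 1.42.0, its size factors, no filter, a replicate block, all 8 samples in a single fit, TPM, and leaving out each sample. Chosen after seeing the data were a robust estimate of the spread, counts summed over transcripts, a crossed block, and the percents of marker sums. The filter of the 8-sample fits was first run by model design and then changed to groups, so the former is given as an alternative. The motifs searched were likewise extended after a first search.

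The genes, lists, and tests were chosen with earlier results of these data known. The genes named were the members, the 3 nearest genes of each, the calcitonin family and its amidating enzyme, and called genes of the lists. Some of the results this selects are left out. The scripts were tested on simulated data. With 2 rats per group, the p-values rest on a spread that is estimated with information from all genes tested. Both the small number of rats and the read depth of low genes limit the precision. Crcp was not analysed here.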

Additional observations from a re-analysis of the deposited data

How the results depend on the processing

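In place of 0 genes in the neonatal comparison, DESeq2 called 21, the replicate block 14, all 8 samples in a single fit 1, the robust spread 1, and DESeq2 on summed counts 32. In place of 0 in the adult comparison, DESeq2 called 9, no filter 2, the replicate block 2, the robust spread 3, and DESeq2 on summed counts 75. In place of 1 over both ages, DESeq2 called 12, no filter 3, the robust spread 2, and DESeq2 on summed counts 12. In place of 0 for the interaction, DESeq2 called 21, no filter 2, and DESeq2 on summed counts 84. In place of 111 with age in sham rats, DESeq2 called 344, no filter 436, the replicate block 20, summed counts 17, and DESeq2 on summed counts 579. In place of 666 with age over both doses, DESeq2 called 1039 and DESeq2 on summed counts 1258. Summing over transcripts may count the same reads more than once. The 2 transcripts of Ramp3, for example, had 426 and 426 reads in 1w0Gy sample 1 and 540 and 539 in 1w4Gy sample 1. Calls on summed counts are therefore to be read with this limit. The cause of the differences between settings was not tested.

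Of the 4 genes, Adm2 became called, 1 gene in place of 0, in the neonatal comparison under DESeq2 on either count (log2 fold change 1.20 in each), over both ages under DESeq2 on either count and without a filter (0.96 in each), and with age in sham rats under DESeq2 on either count, without a filter, and with all 8 samples in a single fit (1.08 in each). With age over both doses, DESeq2 on summed counts, with the limit given above, called 2 in place of 1, adding Calcrl. On log2(TPM + 1) Adm2 was at 0.93 in the neonatal comparison and 0.83 with age in sham rats.

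Leaving out a sample leaves a group with 1, which is assumed to vary like the others. It gave 0 to 80 neonatal genes called (80 without 1w4Gy sample 2), 1 to 38 adult (38 and 8 without 4m0Gy samples 1 and 2, 3 and 1 without the 4m4Gy samples), 1 to 3 over both ages (2 without 1w4Gy sample 2, 3 without 4m0Gy sample 1), 0 for the interaction, 0 to 646 with age in sham rats (0 and 7 without the 1w0Gy samples, 363 and 646 without the 4m0Gy samples), and 266 to 631 over both doses (266 without 1w0Gy sample 2, 339 and 343 without the 4m4Gy samples). Members called went from 0 to 1 in the first 3 and in sham rats, always Adm2, and stayed at 1 over both doses. Adm2 ranged from 1.01 to 1.37, from 0.54 to 0.99, from 0.85 to 1.11, from -0.66 to -0.21, from 0.85 to 1.29, and from 0.72 to 0.97 in the 6 comparisons. The direction changed in some fits for Adm (-0.29 to 0.99 adult, -1.11 to 0.17 in sham rats, -0.010 to 0.44 over both doses), Calcrl (-0.067 to 0.11 over both ages, -0.20 to 0.030 in sham rats), and Ramp3 (-0.035 to 0.39 for the interaction, -0.064 to 0.11 over both doses). No other alternative reversed a member.

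Nothing in the labels says that a replicate number marks a shared litter, batch, or day, and 2 pairs are too few to tell from the data. The deviations of same-numbered samples over 10531 genes had correlations of 0.18, 0.11, and -0.26 in the neonatal, adult, and sham age comparisons. The replicate block changed no call of the 4 genes, and with it the adjusted p of Adm2 in the neonatal comparison was 0.0621 by edgeR. A crossed block, added after seeing the data, called 346 genes with age in sham rats.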

Other observations

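Markers of cell types not described with the 4 genes were also measured. Adipocyte markers had log2 fold changes under 0 in 6 of 6 genes with irradiation at 1 week and in 6 of 6 at 4 months. The medians were -0.64 and -0.52, against 0.00 and 0.01 over all genes tested, and 0 were called by edgeR. At an unadjusted p under 0.05 there were 6 at 1 week and 1 at 4 months, against 5.74% and 8.04% of all genes. DESeq2 called 2 at 1 week, Fabp4 and Plin1, and 0 at 4 months. With age over both doses Adipoq, the adiponectin gene, was at -0.97 ± 0.17 (SE, adjusted p = 0.0149 by edgeR). There 3 of 6 adipocyte markers were called lower, against 4.25% of all genes called in either direction. Of 5 macrophage markers, 3 were called lower with age over both doses, among them Cd163, a scavenger receptor gene (-0.72 ± 0.14, adjusted p = 0.0223 by edgeR). Col1a1, a fibrillar collagen gene, fell by 2.51 on the log2 scale with age over both doses (adjusted p = 4.0e-05 by edgeR). The endothelial cadherin gene Cdh5 fell by 0.44 and was the only one of 12 blood endothelium markers called there (adjusted p = 0.00504 by edgeR).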
